A study of Homo sapiens with 8 samples.

Results

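H3K27ac was examined at 10 genes of the YAP and TEAD axis, chosen by name out of 19974 protein-coding genes on chromosomes 1 to 22 and X. They were YAP1, WWTR1, TEAD1, TEAD3, TEAD4, CCN1, CCN2, AMOTL2, LATS2 and ANKRD1. Each gene was taken with 50 kb on either side, and every H3K27ac peak in that window was listed with its interval, its signal and its rank. The windows of the 10 genes held 53 of the 18678 regions found in the whole genome. The peaks came from MIA PaCa-2, an established pancreatic carcinoma line, in which H3K27ac was measured by ChIP-seq with the antibody Abcam ab4729. Both lines compared carried the lentiMPHv2 and lentiSAMv2 vectors of a CRISPR activation system, which recruit activator proteins to the site of a guide. MP2_HDAC1_OE carried a guide to HDAC1, and the control line MP2_NTC carried a guide with no target. Each line gave 2 H3K27ac samples and 2 control samples without the antibody, and each line was deposited as 1 pooled list of reproducible peaks. With 1 list per line there were no replicate values, so no difference below has an error or a test, and the read depth behind the lists is unknown. The scaling of the signal between the lists is not given in the sources used here.

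YAP1 and WWTR1, which encodes TAZ, are transcriptional co-activators that do not bind DNA themselves. They act through the TEAD factors, which bind DNA and recruit them to promoters and, more often, to distant enhancers. The kinases of the Hippo pathway, with LATS1 and LATS2 as the last step, phosphorylate YAP and TAZ and keep them out of the nucleus. CCN1 and CCN2 encode secreted matrix proteins, and ANKRD1 encodes an ankyrin repeat protein, and all of them are widely used as readouts of YAP and TAZ activity. AMOTL2 and LATS2 are targets that restrain YAP and TAZ in turn. H3K27ac marks active promoters and enhancers, and HDAC1 is a deacetylase that removes acetyl groups from histones.

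Sequence before the start site is shown for 5 of the genes, so that peaks can be read beside matches to a motif that TEAD factors bind. The first 3 stretches carried peaks of both lists, and the last 2 belong to the target genes with the most matches and carried no peak. Each is the 250 bases before a RefSeq start (GRCh38.p14), read 5′ to 3′ on the gene's strand. They lie at chr11:102110197-102110446 on the plus strand for YAP1, and on the minus strand at chr3:149658026-149658275 for WWTR1, chr3:134374448-134374697 for AMOTL2, chr6:131951373-131951622 for CCN2 and chr10:90921088-90921337 for ANKRD1. Capitals mark GGAATG, the core of the TEAD motif, on either strand, and TGANTCA, the AP-1 motif read loosely with any base (N) at its centre.
YAP1 start: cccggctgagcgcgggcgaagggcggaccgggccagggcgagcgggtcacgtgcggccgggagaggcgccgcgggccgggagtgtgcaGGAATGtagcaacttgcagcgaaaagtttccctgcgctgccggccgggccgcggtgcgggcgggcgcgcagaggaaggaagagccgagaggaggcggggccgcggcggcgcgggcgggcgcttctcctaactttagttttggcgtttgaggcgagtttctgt
WWTR1 start with peaks: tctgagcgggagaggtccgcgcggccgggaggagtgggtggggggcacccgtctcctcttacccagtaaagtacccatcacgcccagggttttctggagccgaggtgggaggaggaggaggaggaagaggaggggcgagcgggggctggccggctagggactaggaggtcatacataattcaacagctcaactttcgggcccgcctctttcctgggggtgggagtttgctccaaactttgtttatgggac
AMOTL2 start with peaks: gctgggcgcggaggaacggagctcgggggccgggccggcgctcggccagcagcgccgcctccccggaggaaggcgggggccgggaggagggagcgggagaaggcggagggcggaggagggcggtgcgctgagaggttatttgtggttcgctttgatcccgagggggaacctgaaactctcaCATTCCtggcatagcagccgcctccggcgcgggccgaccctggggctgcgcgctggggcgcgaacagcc
CCN2 start: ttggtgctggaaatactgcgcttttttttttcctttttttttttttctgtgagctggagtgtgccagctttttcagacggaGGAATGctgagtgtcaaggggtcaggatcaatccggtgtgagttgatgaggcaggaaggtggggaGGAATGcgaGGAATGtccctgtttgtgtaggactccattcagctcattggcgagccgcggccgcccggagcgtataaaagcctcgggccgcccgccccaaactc
ANKRD1 start: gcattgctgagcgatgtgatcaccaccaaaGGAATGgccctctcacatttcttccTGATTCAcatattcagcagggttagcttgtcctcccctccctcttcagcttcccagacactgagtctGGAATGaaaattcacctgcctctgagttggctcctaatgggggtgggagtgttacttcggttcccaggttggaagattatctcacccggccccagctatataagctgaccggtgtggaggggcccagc

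CCN2 held 3 matches to GGAATG, with first bases at -169, -104 and -95 counted back from the start. ANKRD1 held 2, at -220 and -128, and the TGANTCA match TGATTCA at -195. YAP1 held 1 match at -162, and the AMOTL2 start with peaks held 1 on the opposite strand, read as CATTCC at -69. No match to either motif was found in the stretch shown for WWTR1, and no matches overlapped each other. Promoter sequences were found for 7 of the 10 genes, and the other starts of WWTR1 and AMOTL2 and the starts of TEAD3 and LATS2 held no match to either motif. Over the 22156 starts of protein-coding genes in the same table, 10.48% held at least 1 GGAATG, 0.7537% at least 2 and 0.07673% at least 3, and 5.362% held TGANTCA. The stretches before CCN2 and ANKRD1, with the most matches, were covered by 0 peaks in both lists. The YAP1 stretch was covered by 3 peaks of MP2_HDAC1_OE and 1 of MP2_NTC, the WWTR1 stretch by 3 and 2, and the AMOTL2 stretch by 1 of each list. A match is only these letters in this window and says nothing of whether a TEAD factor was bound.

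Peaks of both lists were joined into a region where they shared at least 1 bp, and a region was called unique when all of its peaks came from 1 list. Of the 53 regions at the 10 genes, 22 (41.5%) belonged to MP2_HDAC1_OE alone, 16 (30.2%) to MP2_NTC alone and 15 (28.3%) to both lines. Over the whole genome 28.6% of regions belonged to MP2_HDAC1_OE alone, 20.7% to MP2_NTC alone and 50.7% to both. Most of the unique regions lay at only a pair of genes. WWTR1 and AMOTL2 held 40 of the 53 regions, among them 20 of the 22 unique to MP2_HDAC1_OE and 13 of the 16 unique to MP2_NTC. The other 8 genes held 2, 3 and 8 regions that were unique to MP2_HDAC1_OE, unique to MP2_NTC and shared.

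**Figure D1:**
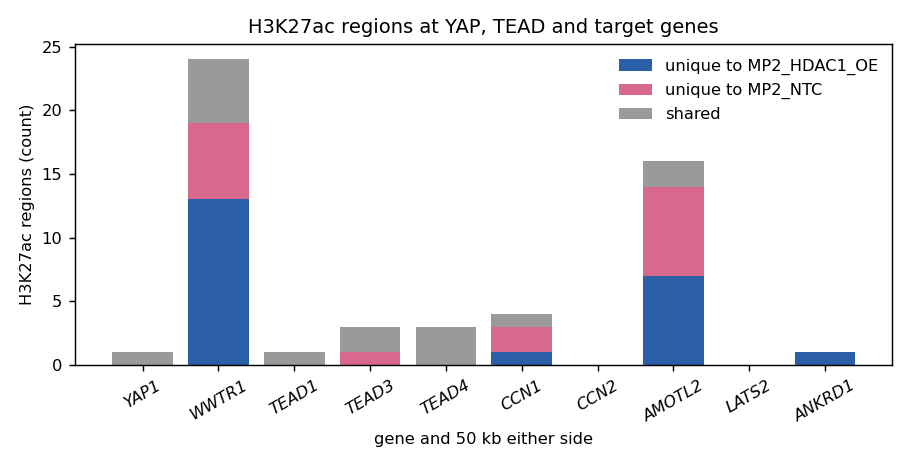
Number of H3K27ac regions in each gene and 50 kb either side, stacked by class (blue, unique to MP2_HDAC1_OE; pink, unique to MP2_NTC; grey, shared). WWTR1 with 24 regions and AMOTL2 with 16 stand above the other genes, which have between 0 and 4.

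By gene, 4 of the 10 windows held a region unique to MP2_HDAC1_OE, against a background of 36.8% of all protein-coding genes. These were WWTR1, AMOTL2, CCN1 and ANKRD1. Likewise 4 of the 10 held a region unique to MP2_NTC, against 33.2%, and these were WWTR1, AMOTL2, CCN1 and TEAD3. A shared region was found at 7 of the 10, against 61.4%. CCN2 and LATS2 held no region, against 28.3% of all genes. The number of genes with a unique region was thus near the background, and it was the number of regions within WWTR1 and AMOTL2 that was high. Only 0.0551% of protein-coding genes (11 genes) had at least as many regions unique to MP2_HDAC1_OE as WWTR1, and 0.566% had at least as many as AMOTL2. At least as many regions unique to MP2_NTC were found at 0.516% of genes for the count of WWTR1 and at 0.275% for that of AMOTL2. A long window can hold more regions, and the WWTR1 window spanned 307.6 kb and the AMOTL2 window 120.1 kb, against a median of 124.2 kb. Per 100 kb of window, WWTR1 had 7.80 regions, above 95.3% of genes, AMOTL2 had 13.3, above 99.3% of genes, and the median gene had 0.976.

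The co-activator genes differed from each other. YAP1, on chromosome 11, had 1 region, at its start site (102109855 to 102112359). MP2_HDAC1_OE had 3 peaks in it, with signals of 69.9, 20.9 and 16.9 in the authors' unit, and MP2_NTC had 4, with signals of 59.1, 58.9, 32.9 and 24.6. The peaks of the lines lay side by side more than on top of each other. The strongest peak of MP2_HDAC1_OE ran from 102109915 to 102110223, before the start, and the strongest of MP2_NTC from 102111336 to 102112155, inside the gene. The peaks of MP2_HDAC1_OE reached 102110994 and those of MP2_NTC began at 102110272, so only the weaker peaks of each list met. With the 75% of peaks with the highest signal kept in each list, YAP1 had 1 region unique to each line and none shared.

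WWTR1 had the most regions of the 10 genes. Its 24 regions fell into 13 seen in MP2_HDAC1_OE alone, 6 in MP2_NTC alone and 5 in both, with 25 peaks covering 15049 bp in MP2_HDAC1_OE and 15 peaks covering 8829 bp in MP2_NTC. Most peaks at the 10 genes had the same width of 820 bp, 42 of 60 in MP2_HDAC1_OE and 28 of 46 in MP2_NTC. The covered bases here and below therefore largely follow the number of peaks, and overlap between the lists was judged on such fixed intervals. The start site differed little. RefSeq gives 2 starts for WWTR1, and the one at 149658025 carried the peaks, while the one at 149703273 had none. The strongest start site peak had a signal of 87.6 in MP2_HDAC1_OE, and outranked 92.4% of its list, and in MP2_NTC it had 91.4 and outranked 90.6%. The unique regions lay instead inside the gene, a body 207.6 kb long. All 13 regions unique to MP2_HDAC1_OE and all 6 unique to MP2_NTC lay inside the gene. Of the 6, the one at 149657183 to 149657464 (signal 37.9) lay 0.702 kb after the start.

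A dense run of 14 regions filled 26.8 kb of the WWTR1 gene body, from 149563995 to 149590837, between 68.0 and 93.6 kb from the start. MP2_HDAC1_OE alone held 8 of them, MP2_NTC alone 3 and both lines 3, and peaks covered 9156 bp in MP2_HDAC1_OE and 5055 bp in MP2_NTC. The strongest region unique to MP2_HDAC1_OE, at 149578049 to 149578568, reached 83.0 and outranked 90.3% of its list, close to the level of the WWTR1 start site. The strongest region unique to MP2_NTC, at 149580310 to 149581129, reached 62.3, outranked 69.1% of its list and lay within the same run. Both lists therefore marked the same stretch of the gene, with overlapping peaks in 3 of the 14 regions and at different positions in the others. The shared regions of the run had strongest signals of 55.8 and 38.6 (149572229 to 149573972), 71.1 and 54.0 (149575652 to 149576296), and 41.1 and 42.8 (149589171 to 149590837) in MP2_HDAC1_OE and MP2_NTC.

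Outside that run the WWTR1 regions were scattered and mostly weak. Those at 13.2, 20.2 and 51.2 kb from the start, all unique to MP2_HDAC1_OE, had signals of 18.3, 15.6 and 26.0, above at most 17.0% of the peaks of the list. Toward the 3′ end lay 2 more regions unique to MP2_HDAC1_OE, with signals of 34.5 and 47.3, and 2 unique to MP2_NTC, with signals of 26.6 and 34.7. The last region, 178.0 kb from the start and beyond the gene, was shared at signals of 39.2 and 37.0. Over the 13 regions unique to MP2_HDAC1_OE the median signal was 41.9 (15.6 to 83.0), and over the 6 unique to MP2_NTC it was 36.3 (25.8 to 62.3). The medians over all regions of these classes were 42.2 and 43.5, so a typical unique region of WWTR1 was not stronger than unique regions elsewhere. With only peaks at the highest deposited score of 1000, WWTR1 had 2 regions unique to MP2_HDAC1_OE and 0 unique to MP2_NTC. With peaks up to 500 bp apart joined, it had 10 regions unique to MP2_HDAC1_OE, 3 unique to MP2_NTC and 6 shared.

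**Figure D2:**
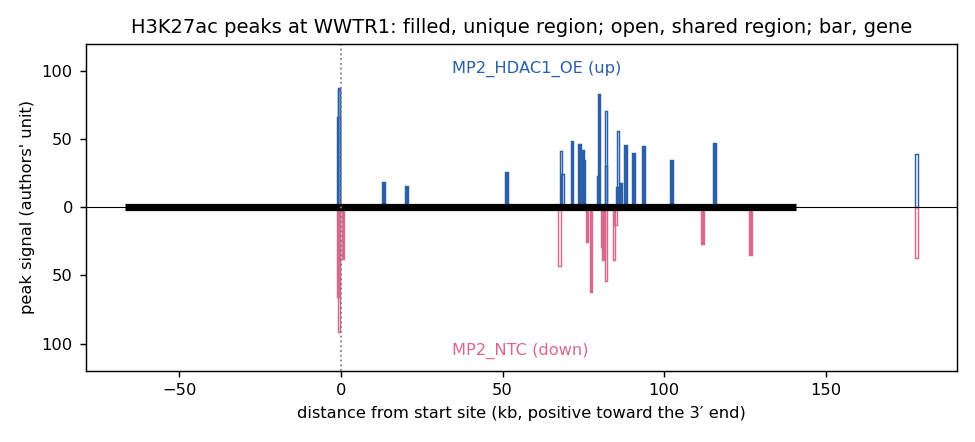
Signal of each H3K27ac peak at WWTR1 (authors' unit, MP2_HDAC1_OE upward in blue, MP2_NTC downward in pink) against distance in kb from the start site with peaks, positive toward the 3′ end, with narrow peaks widened so that they show. Filled bars belong to unique regions, open bars to shared ones and the black bar is the gene, and the 14 regions between 68.0 and 93.6 kb stand together inside it.

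All 3 TEAD genes of the 10 had a shared region, and none had a region unique to MP2_HDAC1_OE. TEAD1, also on chromosome 11, had 1 region (12693305 to 12694832), 19.6 kb inside the lower end of the gene. It held 3 peaks in MP2_HDAC1_OE, with signals of 66.1, 39.3 and 22.7, and 1 in MP2_NTC, with a signal of 51.2. There was no peak of either list at the ends of TEAD1, whose window spanned 370.3 kb. At TEAD3, on chromosome 6, the start site region (35497365 to 35498387) held 2 peaks with signals of 39.2 and 27.2 in MP2_HDAC1_OE and 1 with a signal of 72.7 in MP2_NTC. The strongest of them outranked 79.4% of the peaks in MP2_NTC and 35.0% in MP2_HDAC1_OE, the widest start site gap among the 10 genes. The TEAD3 window also held the starts of other genes. A region unique to MP2_NTC (signal 55.0) lay at the start of FANCE, and a shared one at the start of RPL10A, which encodes a ribosomal protein, had signals of 48.0 and 91.1.

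TEAD4, on chromosome 12, had a pair of shared regions at its lower end, and they differed in opposite directions. The region at 2958380 to 2959199 had a strongest signal of 78.1 in MP2_HDAC1_OE and 127.3 in MP2_NTC, where it ranked above 98.3% of peaks, the highest rank of any peak at the 10 genes. The neighbouring region at 2959359 to 2960697 had a strongest signal of 86.3 in MP2_HDAC1_OE and 41.6 in MP2_NTC. Relative to the median of all shared regions the log2 ratios of MP2_HDAC1_OE over MP2_NTC were -0.65 and 1.11. The third region of the TEAD4 window, at the start of TSPAN9, had signals of 95.9 and 102.3. With only peaks at score 1000, TEAD1 and TEAD4 each had 1 region unique to MP2_HDAC1_OE, since the MP2_NTC peaks there had lower scores.

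AMOTL2, which encodes a motin that holds YAP at cell junctions, had 7 regions unique to each line and 2 shared. MP2_HDAC1_OE had 14 peaks covering 7480 bp and MP2_NTC 11 peaks covering 6172 bp. The equal counts had unequal positions. Of the 7 regions unique to MP2_NTC, 5 overlapped the gene body, between 3.85 and 19.3 kb from the start, and 2 lay beyond the 3′ end. Of the 7 unique to MP2_HDAC1_OE, 2 overlapped the gene body, at 6.87 and 8.98 kb, and 5 lay beyond the 3′ end, between 46.8 and 65.6 kb from the start. With 10 kb on either side in place of 50 kb, AMOTL2 therefore had 2 regions unique to MP2_HDAC1_OE and 5 unique to MP2_NTC.

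The strongest region unique to MP2_NTC at AMOTL2, at 134363771 to 134364186, reached 93.9 and outranked 91.6% of its list, and the next, at 134357574 to 134357851, reached 79.0 and outranked 84.2%. The other 5 had signals between 20.9 and 43.3. A region unique to MP2_HDAC1_OE at 134364739 to 134366190 (signal 58.2) began 553 bp from the strongest one of MP2_NTC. Elsewhere in the gene the lists lay farther apart, and 3 of the 5 regions unique to MP2_NTC there were 6170, 6888 and 9219 bp from the nearest MP2_HDAC1_OE peak. Beyond the 3′ end, 3 regions unique to MP2_HDAC1_OE (signals of 53.6, 54.4 and 66.2) and 1 shared region filled 7.19 kb from 134308301 to 134315491. In that stretch MP2_HDAC1_OE had 6 peaks covering 2937 bp, and MP2_NTC had 1 peak of 820 bp with a signal of 18.8, above 7.01% of its list. At the start site itself (134373319 to 134374552) the strongest signal was 69.3 in MP2_HDAC1_OE and 103.1 in MP2_NTC. With only peaks at score 1000, AMOTL2 had 1 region unique to MP2_HDAC1_OE and 2 unique to MP2_NTC.

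**Figure D3:**
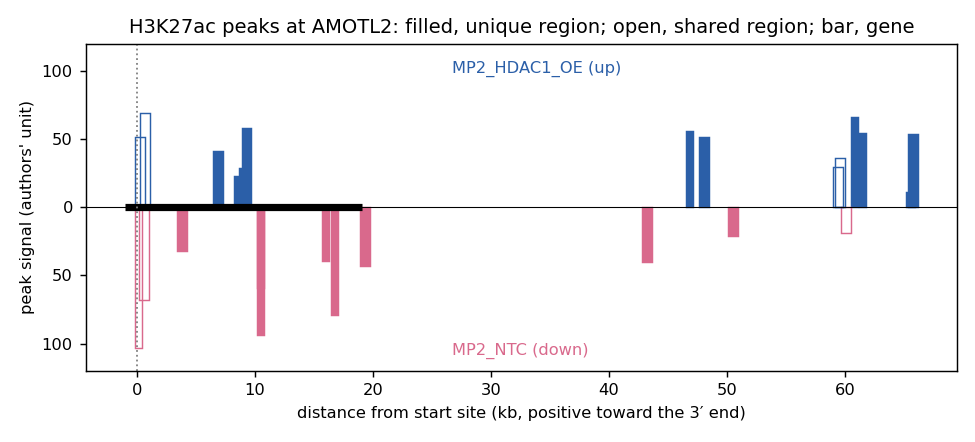
Signal of each H3K27ac peak at AMOTL2 (authors' unit, MP2_HDAC1_OE upward in blue, MP2_NTC downward in pink) against distance in kb from the start site with peaks, positive toward the 3′ end, with narrow peaks widened so that they show. Filled bars are unique regions, open bars shared ones and the black bar is the gene: 5 of the 7 pink unique regions overlap it, and 5 of the 7 blue ones lie beyond it, from 46.8 to 65.6 kb.

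Of the secreted targets, CCN1 had peaks and CCN2 had none. CCN1, on chromosome 1, had 4 regions, more than 73.4% of protein-coding genes. One unique to MP2_NTC (85580817 to 85581636, signal 63.2) and one unique to MP2_HDAC1_OE (85581736 to 85582755, signal 50.1) lay 100 bp apart inside the gene, so the gene was marked in both lines by peaks that did not overlap. A further region unique to MP2_NTC lay outside the gene (85607121 to 85608331, signal 42.3), 24366 bp from the nearest MP2_HDAC1_OE peak, and a shared region at the start of DDAH1 had signals of 37.3 and 43.3. When peaks up to 500 bp apart were joined, CCN1 had 2 shared regions and none unique to MP2_HDAC1_OE. CCN2, on chromosome 6 at 131948176 to 131951372, had no peak of either list within 50 kb. ANKRD1, on chromosome 10, had none at the gene, and its only region was unique to MP2_HDAC1_OE (90871728 to 90872547, signal 42.7) at the start of RPP30, 48.9 kb away. The nearest peak of MP2_NTC to that region was 537076 bp away. LATS2, on chromosome 13 at 20973036 to 21061586, had no peak of either list. An empty window means that no peak passed the authors' reproducibility threshold there, which does not show that the mark was absent.

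At start sites, from 2 kb before to 1 kb after the start, 6 of the 10 genes had a peak in both lists, against a background of 37.1% of all protein-coding genes (43.5% for MP2_HDAC1_OE and 42.4% for MP2_NTC taken singly). For TEAD1, TEAD4 and CCN1, with no start in the table used, both gene ends were read. The same was done for every other gene without a start there. The 6 genes were YAP1, WWTR1, TEAD3, TEAD4, CCN1 and AMOTL2, and no gene had a start site peak in 1 list alone. With only peaks at score 1000, 4 of the 10 genes had a start site peak in MP2_HDAC1_OE and 6 in MP2_NTC. With either gene end read for every gene, the count was 5 in each list. The lists differed in length, with 25045 peaks in MP2_HDAC1_OE and 22569 in MP2_NTC. The rank of the strongest peak within its own list does not need the scaling, but it shifts with the number of weak peaks kept. It was higher in MP2_HDAC1_OE at YAP1 (above 81.7% against 65.0% of peaks) and slightly so at WWTR1 (92.4% against 90.6%). It was lower in MP2_HDAC1_OE at TEAD3 (35.0% against 79.4%), CCN1 (56.9% against 70.1%), AMOTL2 (81.2% against 94.5%) and TEAD4 (91.8% against 98.3%). The peaks ranked at YAP1, TEAD4 and CCN1 did not overlap between the lists.

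**Figure D4:**
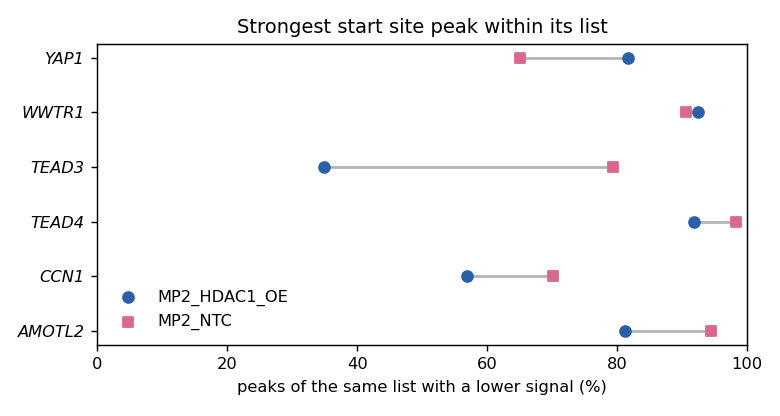
Rank of the strongest start site peak of the 6 genes with peaks in both lists, as the percent of peaks of the same list with a lower signal (blue circles, MP2_HDAC1_OE; pink squares, MP2_NTC). TEAD3 has the widest gap, 35.0% against 79.4%, and WWTR1 the narrowest, 92.4% against 90.6%.

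The log2 ratio of MP2_HDAC1_OE over MP2_NTC was taken from the strongest start site peaks, relative to the median over all shared regions. It was -0.83 at TEAD3, -0.51 at AMOTL2, -0.50 at TEAD4, -0.27 at CCN1, -0.0034 at WWTR1 and 0.30 at YAP1. At YAP1, TEAD4 and CCN1 the strongest peaks of the lists did not overlap, so these ratios set different positions against each other. Within the shared regions at the lower end of TEAD4 the ratios were -0.65 and 1.11. A ratio was called where it passed 1.5-fold, and 0 of the 6 genes were called higher in MP2_HDAC1_OE, against 9.94% of the 7402 genes with both peaks. Only TEAD3 was called lower, against 11.2%. The median of the 6 was -0.39, and that of all 7402 genes was -0.013, with quartiles of -0.33 and 0.29. The order of the genes depended on how the peaks were combined. With the signals of all start site peaks summed, YAP1 was at -0.36 in place of 0.30, and TEAD3 was at -0.08 and not called. With either gene end read for every gene, AMOTL2 was at -0.94 and was called lower beside TEAD3.

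**Figure D5:**
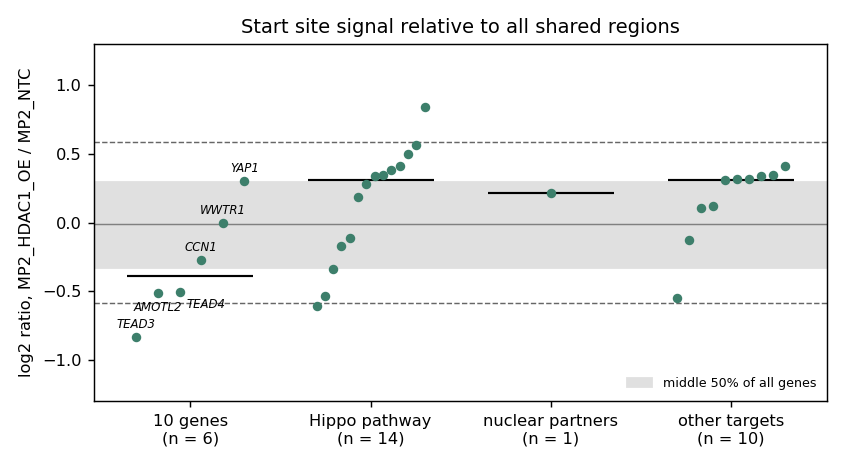
Log2 ratio of the strongest start site peak, MP2_HDAC1_OE over MP2_NTC, relative to the median of all shared regions, for the 10 genes and the lists of related genes (n, genes with a start site peak in both lines). Black lines are medians, the grey band is the middle 50% of all protein-coding genes, -0.33 to 0.29, around their median, and dashed lines mark 1.5-fold, passed downward among the 10 genes only by TEAD3.

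The median distance from a region unique to MP2_HDAC1_OE to the nearest MP2_NTC peak was 2566 bp at the 10 genes and 5183 bp over all such regions. For regions unique to MP2_NTC the medians were 2543 and 4662 bp. Within 2000 bp of the other list lay 9 of the 22 regions unique to MP2_HDAC1_OE (40.9%, against 37.8% of all) and 7 of the 16 unique to MP2_NTC (43.8%, against 40.5%). At WWTR1 this held for 4 of 13 and 4 of 6, and at AMOTL2 for 4 of 7 and 2 of 7. The shares near a peak of the other line were thus close to those over all regions, while the medians were lower.

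YAP1 and TEAD1 lie on chromosome 11, which was richer in regions unique to MP2_HDAC1_OE. Of its 795 regions 35.3% were unique to MP2_HDAC1_OE (95% Wilson interval 32.1 to 38.7%, counting error only), against 28.3% (27.6 to 28.9%) on the other chromosomes. The YAP1 and TEAD1 windows held 1 region each, shared in both cases, too few to set against that share. Within 5 Mb of TEAD1, its own window left out, 24 of 56 regions were unique to MP2_HDAC1_OE (42.9%, 30.8 to 55.9%). Around YAP1 the 5 Mb held only 16 regions, 5 of them unique to MP2_HDAC1_OE. WWTR1 and AMOTL2 share chromosome 3, where 29.1% of regions were unique to MP2_HDAC1_OE, but their surroundings differed. Within 5 Mb of WWTR1, 31 of 63 regions were unique to MP2_HDAC1_OE (49.2%, 37.3 to 61.2%) and 7 to MP2_NTC. Within 5 Mb of AMOTL2 the counts were 11 and 12 of 58 (19.0%, 10.9 to 30.9%, for MP2_HDAC1_OE). The part of these surroundings in the count at WWTR1 was not tested. With lists of equal length WWTR1 had 11 regions unique to MP2_HDAC1_OE and 7 unique to MP2_NTC.

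Other genes of the pathway were read in the same way. Of 30 Hippo pathway kinases, adaptors and upstream regulators, 13 (43.3%) had a region unique to MP2_HDAC1_OE and 15 (50%) had one unique to MP2_NTC, against 36.8% and 33.2% of all genes. Start site peaks were found in both lists at 14 of them, in MP2_HDAC1_OE alone at 2, in MP2_NTC alone at 5 and in neither at 9, where the background was 37.1% of all genes for both lists, 6.40% for MP2_HDAC1_OE alone and 5.35% for MP2_NTC alone. The 5 were LATS1, WWC2, MAP4K4, SLMAP and MARK4, and the 2 were STK4 and MOB1B, all named after their values were seen. STK4, a core kinase that acts on LATS1 and LATS2 with the help of MOB1 proteins, had a signal of 64.2 in MP2_HDAC1_OE, above 76.5% of the list, and MOB1B had 48.7. LATS1, the partner kinase of LATS2, had a strong start site peak in MP2_NTC, with a signal of 105.9, above 95.1% of the list, and none in MP2_HDAC1_OE. The median log2 ratio over the 14 was 0.31, and 1 passed 1.5-fold in each direction, against 9.94% of all genes with both peaks higher and 11.2% lower. SAV1, the scaffold of the upstream kinases, was called higher in MP2_HDAC1_OE, with signals of 65.4 and 38.0 and a log2 ratio of 0.84, and was followed by WWC1 (0.57) and TAOK2 (0.50). TAOK1, a kinase that activates the upstream kinases, was called lower at -0.60 with signals of 39.1 and 61.8, and was followed by RASSF1 (-0.53) and STRN3 (-0.34). The most regions unique to MP2_HDAC1_OE were at STRN4 (5), NF2 (4) and SLMAP (4), and the most unique to MP2_NTC at RASSF1 (4) and TAOK2 (3).

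Of 8 nuclear partners, 4 had a region unique to MP2_HDAC1_OE and 3 had one unique to MP2_NTC, against 36.8% and 33.2% of all genes. TEAD2, the TEAD family member on chromosome 19, was the only one with a start site peak in both lists, with signals of 63.7 and 57.0 and a log2 ratio of 0.22. It also had 3 regions unique to MP2_HDAC1_OE and 0 unique to MP2_NTC. RUNX1 had 3 and 1, and VGLL4, which competes with YAP for TEAD factors, had 2 and 1.

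Of 26 further target genes of YAP and TAZ, 11 (42.3%) had a region unique to MP2_HDAC1_OE and 9 (34.6%) had one unique to MP2_NTC, near the 36.8% and 33.2% of all genes. Start site peaks were found in both lists at 10 (37.1% of all genes), in MP2_HDAC1_OE alone at 6 (6.40%), in MP2_NTC alone at 1 (5.35%) and in neither at 9. The 6 were MYOF, AXL, NT5E, BIRC3, AREG and CCND1, named after their values were seen, with signals between 34.0 and 65.4. The highest of them was NT5E, a cell surface nucleotidase, at 65.4, above 77.7% of the list, while CCND1, encoding cyclin D1, was at 34.0, above 26.0%. None of the 10 with both peaks passed 1.5-fold, against 9.94% of all genes with both peaks higher and 11.2% lower. Their median log2 ratio was 0.31, from 0.41 at PTPN14, 0.35 at MYC and 0.34 at AJUBA to 0.11 at ASAP1, -0.12 at ARHGEF17 and -0.55 at BIRC5. PTPN14 and AJUBA stand in both the Hippo and the target list. Of the targets named here, CCND1, MYC, BIRC5, ASAP1, ARHGEF17 and CRIM1 were read at both gene ends, so their peaks need not lie at the start. CRIM1, which encodes a transmembrane protein that binds growth factors, had the most unique regions of the list, 10 for MP2_HDAC1_OE and 5 for MP2_NTC, with no start site peak. MYOF (6) and AXL (3) followed for MP2_HDAC1_OE, and BIRC5 had 2 regions unique to MP2_NTC.

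Only genes with a start site peak in both lists were compared for likeness. Among them the pattern of YAP1 was common and that of WWTR1 was rare. Of these genes, 1406 had 1 shared region and no unique one, and CYTH1, CBX6 and ZKSCAN2 had ranks nearest to YAP1. The joint distance over both ranks was at most 1.76 percentage points. For WWTR1 no compared gene had the same counts, and only 5 came within a difference of 6 regions. Of these ARFRP1, TMSB4X and SBNO2 were nearest, at 10.8, 12.8 and 20.0 percentage points. CRIM1 was not compared because it had no start site peak. Its counts were 10 unique to MP2_HDAC1_OE, 5 unique to MP2_NTC and 5 shared, against 13, 6 and 5 at WWTR1. The likeness covers only 2 lists.

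As a check of the labels, the strongest peak at the start of HDAC1 had a signal of 91.6 in MP2_HDAC1_OE, above 93.9% of its list, and of 46.7 in MP2_NTC, above 45.2% (log2 ratio 1.03). The MP2_NTC peak lay in a region unique to MP2_NTC (32292210 to 32292433). In the shared region at the start (32291457 to 32291900) the signals were 91.6 and 44.1. Of markers for the labelled epithelial cell, KRT18 and KRT19 had start site peaks in both lists, KRT8 had one in MP2_HDAC1_OE alone, and EPCAM and CDH1 had none. The mesenchymal markers VIM and ZEB1 had them in both lists. There was none at the acinar, leukocyte and fibroblast markers read, and of the endothelial markers CDH5 had a peak in both lists and PECAM1 had none. KRT18, KRT19, EPCAM, CDH1, COL1A1, CDH5 and PECAM1 had no start in the table used and were read at both gene ends. A peak counted for them need not lie at the start. The lists held 25045 peaks for MP2_HDAC1_OE and 22569 for MP2_NTC, with median signals of 46.5 and 49.3.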

How the data were processed

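H3K27ac ChIP-seq of MP2_HDAC1_OE and MP2_NTC (2 samples and 2 control samples each) was used. Per the labels, the reads were aligned to hg38 with BWA 0.7.12 and handled with Picard 1.88. The authors used the ENCODE pipeline, and they deposited for each line 1 peak list pooled over samples and kept by IDR, a test of reproducibility. The peak caller is not given in the sources used here. The deposited signal (column 7) and the deposited score are the caller's, with a scaling between lists that is not stated, and the depth is unknown. No count test was possible.

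Regions, windows, start sites and ranks were computed in Python 3.11.15 with pandas 2.3.3 and numpy 2.4.6, with gene positions and promoter sequences from RefSeq GRCh38.p14, and checked on simulated peaks. Log2 ratios were centred on the median of all shared regions, -0.058. Starts came from the promoter table for 15813 genes and from gene ends for 4161. Other genes were named by the 3 highest and 3 lowest log2 ratios and the 3 highest counts of unique regions per list, fewer where counts tied or where a gene of the lists is not reported here, and for YAP1 and WWTR1 by the nearest start site ranks. The members and lists were chosen with earlier results of these data known. Alternatives changed the merging, the peak threshold, the window, the start site and the scaling. Without replicates, a ratio was taken to move where its call changed or it shifted by over 1.5-fold. A count moved where it changed by over 1.5 times, and a percentage where it left its 95% interval.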

Additional observations from a re-analysis of the deposited data

How the results depend on the processing

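Of 129 values recomputed under other settings for 22 results, 104 kept their call and stayed within the limits set for a move, 25 moved and 0 reversed a call. Only the median ratio and the called ratio of TEAD3 could be labelled reversed, so the 0 says little. The YAP1 ratio changed sign from 0.30 to -0.36 with summed signals and was counted as moved. The log2 ratio at the WWTR1 start, close to 0 at -0.0034, was 0.0095 when centred on all start sites and 0.013 after quantile normalization. No paired analysis was possible because each line was deposited as 1 pooled list, and for the same reason no replicate could be left out. With only peaks at score 1000, the regions unique to MP2_HDAC1_OE were 5 in place of 22, those unique to MP2_NTC 4 in place of 16 and the shared ones 6 in place of 15, since fewer peaks were read. As single peaks that had to overlap by 50% of both, the counts were 47, 35 and 24. The number of genes called lower at the start site was 1, and it was 0 with summed signals and 2 with either gene end. The percent unique to MP2_HDAC1_OE on chromosome 11 was 31.7 with score 1000 and 32.0 with peaks up to 500 bp apart joined. On the other chromosomes it was 25.8 and 24.8 under these settings and 26.9 with lists cut to equal numbers of peaks. The chromosome 11 percentage was the higher one in each of these. What moved the single-gene values was not tested.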
